A study of Sus scrofa with 150 samples.

Results

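Pig livers were ranked by the transcript of DBP, a transcription factor of the circadian clock, and the 30 livers with the most DBP were set against the 30 with the least, of 150 in all. The groups were chosen by the log2 value of its probe set on the array, with ties broken by sample order, and 90 livers fell in neither group. All 150 came from 1 labelled group of commercial crossbred pigs, Pix(DLxDE), whose livers were taken at slaughter and hybridised to the Affymetrix porcine array, 1 array per pig. The animals carried no treatment or engineered allele. The labels record neither the hour of slaughter nor the feeding state, age, sex or family, so a clock phase is not a label here and the groups are called high-DBP and low-DBP livers.

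The circadian clock is a feedback loop of transcription. The activators CLOCK and ARNTL (also named BMAL1) switch on their own repressors, the PER and CRY proteins, together with DBP, which in turn drives genes through D-box sites. NFIL3 represses through the same D-box sites, and in mouse liver DBP and ARNTL peak at opposite times of day. Many genes of liver metabolism follow this rhythm, and many of the same genes also follow feeding and fasting.

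On the deposited log2 scale DBP ran from 8.47 to 9.74 in the high-DBP livers, with a median of 8.71, and from 6.06 to 7.37 in the low-DBP livers, with a median of 7.05. The mean was 8.77 ± 0.31 in high-DBP and 6.97 ± 0.36 in low-DBP livers (SD, n = 30 each), which is 3.48-fold on the linear scale. These values made the groups and were not tested. The edge of the high-DBP group fell inside a tie: 1 liver at 8.47 lay inside and 3 livers at 8.47 lay outside. At the other edge the last liver inside had 7.37 and the first outside 7.38.

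Every other probe set was tested between the groups with limma on the same arrays, 23998 in all, with Benjamini-Hochberg adjustment and a call at an adjusted p under 0.05. A second fit in the 90 livers outside the groups took the slope of each probe set on DBP, in log2 units per log2 unit of DBP. It shares no liver with the group comparison, and DBP spans less there, with an SD of 0.29. Both fits measure what went with DBP on the same array, and their p-values measure the spread between these pigs. Values are log2 values of 1 probe set per gene, the one with the smallest p.

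Before the results, the arrays themselves differed between the groups. An array stood apart when its median correlation with the other arrays lay over 3 median absolute deviations below the typical one, and 0 of 30 high-DBP arrays did so against 7 of 30 low-DBP arrays. The median correlation averaged 0.970 in the high-DBP and 0.963 in the low-DBP group (permutation adjusted p = 0.0346 over 8 measures), and the array median averaged 5.93 in the high-DBP and 5.96 in the low-DBP group (adjusted p = 0.0512). The GAPDH signal of the 3 prime control probe set minus the 5 prime one, which grows as RNA degrades, was on average 0.938 in the high-DBP and 1.04 in the low-DBP group (adjusted p = 0.326). Without the arrays that stood apart the low-DBP mean of this measure was 0.933. Those 7 low-DBP arrays themselves had 1.7, 1.18, 1.44, 1.41, 1.54, 0.71 and 1.75. Of all probe sets, 65.97% had the larger SD in the low-DBP group, and 49.96% once the 7 arrays were left out. Results are therefore given with all livers and, where a call changed, without these 7.

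Between the groups 3973 probe sets were called, 16.6% of those tested: 1579 were higher and 2394 lower in the high-DBP livers. Leaving out the arrays that stood apart gave 2003 calls, 853 higher and 1150 lower. The balance of directions depended on the scaling, since 39.7% of calls were higher on the deposited values and 55.1% after quantile normalization. Most differences were small, and only 6 probe sets were higher and 11 lower by 2-fold or more. In a whole-liver sample, fewer cells of a type and less RNA per cell cannot be told apart. Counted by gene, 11.3% of 6764 named genes were called higher and 13.8% lower, which is the background for every list below. Leaving those arrays out, these shares were 6.18% and 7.54%.

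ARNTL, the activator that pairs with CLOCK, had the lowest adjusted p of the named genes and ran opposite to DBP (probe set Ssc.25227.1.S1_at). It ran from 5.07 to 6.74 in the high-DBP livers, with a median of 5.96, and from 5.96 to 7.54 in the low-DBP livers, with a median of 7.04. All 30 high-DBP livers lay below the low-DBP median, and 15 lay below every low-DBP liver. The difference was -1.06 (SE 0.0933, limma adjusted p = 4.79e-13), so the mean in high-DBP livers was 0.481 of that in low-DBP livers. In the 90 other livers the slope was -1.01 (SE 0.156, limma adjusted p = 4.03e-05).

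NFIL3, the repressor that competes with DBP for D-box sites, was also lower in the high-DBP livers. It ran from 7.31 to 9.09 there, with a median of 8.11, and from 8.13 to 10.02 in low-DBP livers, with a median of 9.15. The ranges overlapped, but 15 of the 30 high-DBP livers lay below every low-DBP liver and all 30 below their median. The difference was -0.996 (SE 0.12, limma adjusted p = 2.96e-08), and the slope in the 90 other livers was -0.48 (unadjusted p = 0.0065). Both marker genes given for the contrast thus moved with DBP, each downward as DBP was higher.

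Of the repressors of the loop, CRY2 was higher where DBP was higher. CRY2 ran from 5.85 to 7.12 in high-DBP livers, with a median of 6.22, and from 4.90 to 6.34 in low-DBP livers, with a median of 5.78. All 30 high-DBP livers were above the low-DBP median, and 9 were above every low-DBP liver. The difference was 0.55 (SE 0.0807, 1.46-fold, limma adjusted p = 2.87e-06).

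PER1, the other repressor called, overlapped far more between the groups. It ran from 8.05 to 9.82 in high-DBP livers, median 9.09, and from 7.66 to 9.47 in low-DBP livers, median 8.79. The difference of 0.38 (SE 0.109, limma adjusted p = 0.0119) was lost when the array median was a covariate (adjusted p = 0.0736) or when title numbers, whose meaning the labels do not give, entered as blocks of 100 (adjusted p = 0.0847). Its other probe set differed by 0.08 and was not called. In the 90 other livers the slopes were 0.30 for CRY2 (unadjusted p = 0.0047) and 0.30 for PER1 (unadjusted p = 0.0214).

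The remaining clock genes measured did not pass. BHLHE40, a repressor of the same activators, differed by 0.31 (limma adjusted p = 0.0659), and passed under 6 alternatives, among them quantile normalization. Without the arrays that stood apart BHLHE40 differed by 0.21 (limma adjusted p = 0.327). Its second, brighter probe set differed by 0.04 (limma adjusted p = 0.726). RORA, a nuclear receptor that activates ARNTL, differed by -0.17 (limma adjusted p = 0.527), and the sign turned to 0.03 with the array median as a covariate. CSNK1D, a kinase of the PER proteins, differed by -0.10 (limma adjusted p = 0.0649), while its 2 other probe sets differed by 0.08 and 0.03 and were not called. CLOCK, PER2, CRY1, NR1D1, TEF and HLF were not analysed here.

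**Figure D1:**
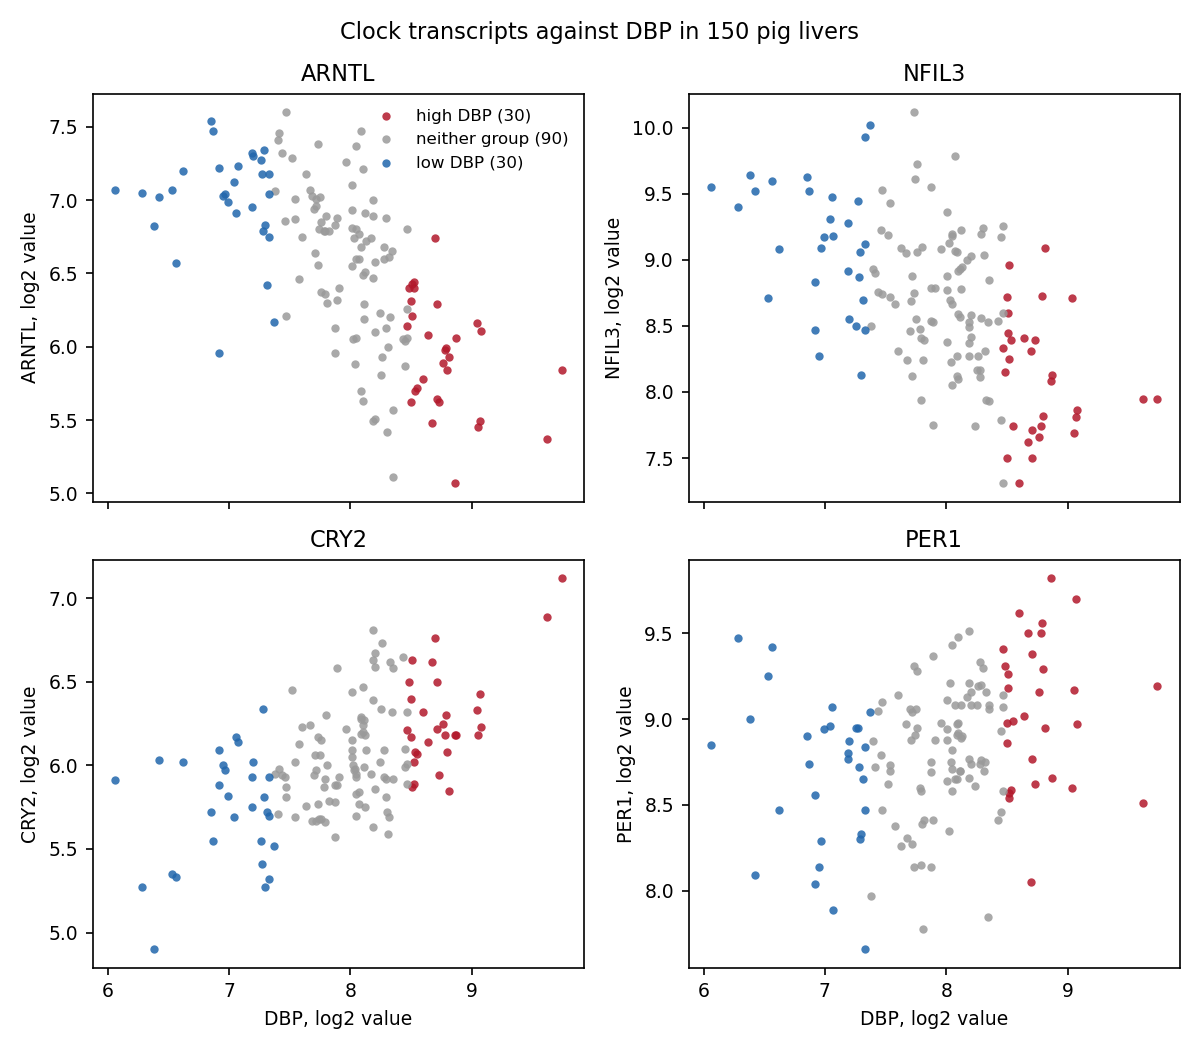
Log2 value of 4 clock transcripts (vertical axes) against the log2 value of DBP (horizontal axis) in 150 livers, 1 point per liver, coloured as high DBP (30), in neither group (90) or low DBP (30). ARNTL and NFIL3 fall and CRY2 climbs from left to right, while PER1 scatters widely, with 6 high-DBP livers above every low-DBP liver.

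The 4 called transcripts were then read together in each liver, counting how many lay on the side of the median of all 150 livers that goes with high DBP: ARNTL and NFIL3 below it, CRY2 and PER1 above it. In the high-DBP group 16 of 30 livers had all 4 on that side, 8 had 3, 6 had 2, and 0 had fewer. In the low-DBP group 0 of 30 had 3 or more, 6 had 2, 16 had 1 and 8 had 0. The 90 livers in neither group were spread over every count, with 8, 18, 27, 29 and 8 livers at 4, 3, 2, 1 and 0. These counts describe the groups and carry no test, since the transcripts were picked for passing the comparison.

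The liver with the most DBP, at 9.74, had ARNTL at 5.84, NFIL3 at 7.95, CRY2 at 7.12 and PER1 at 9.19. The liver with the least, at 6.06, had ARNTL at 7.07, NFIL3 at 9.55, CRY2 at 5.91 and PER1 at 8.85, and its array was among those that stood apart. These 2 livers differed in the same direction as the group means for all 4 transcripts. At the next ranks PER1 did not, with 8.51 in the liver of second-highest DBP and 9.47 in that of second-lowest DBP.

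Within the groups the relations were uneven. Of 15 correlations with DBP, across the high-DBP livers, the low-DBP livers and the 90 others, ARNTL in the 90 was the strongest (Pearson r = -0.560, Spearman rho = -0.579, permutation adjusted p = 0.00015 for each, r = -0.538 without the 2 livers of most extreme DBP). Within the 30 low-DBP livers ARNTL showed r = -0.0724 (rho = -0.128, permutation adjusted p = 0.765). CRY2 within the 30 high-DBP livers gave r = 0.553 (permutation adjusted p = 0.0187) but rho = 0.208 (adjusted p = 0.436), and r was 0.0524 without the 2 livers of most extreme DBP, so that relation rested on those 2 livers. In the 90 others NFIL3 gave r = -0.280 (rho = -0.245, permutation adjusted p = 0.0255 and 0.063, r = -0.293 without 2 livers). CRY2 gave r = 0.295 there (rho = 0.269, permutation adjusted p = 0.0236 and 0.0615, r = 0.276 without 2 livers), and PER1 r = 0.240 (rho = 0.2496, permutation adjusted p = 0.0672 and 0.063, r = 0.204 without 2 livers).

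Of 25 measured genes listed as outputs of the liver clock, 8 were higher and 2 lower in the high-DBP livers and 15 did not pass. The median difference was 0.11, against -0.01 over all genes. The counts were 6 higher and 1 lower without the arrays that stood apart. The list's median slope in the 90 other livers was 0.03, with 14 slopes positive and 11 negative, of which 1 and 2 had an unadjusted p under 0.05.

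WEE1, a kinase that holds back entry into mitosis, ran from 5.44 to 6.74 in high-DBP livers, median 6.27, and from 5.0 to 6.36 in low-DBP livers, median 5.58. The difference was 0.61 (SE 0.0861, 1.53-fold, limma adjusted p = 1.04e-06), and 11 high-DBP livers exceeded every low-DBP liver. USP2, a ubiquitin-removing protease with a rhythmic level in mouse liver, differed by 0.61 (SE 0.139, 1.52-fold, limma adjusted p = 0.0016). CDKN1A, the cell-cycle inhibitor p21, differed by -0.64 (SE 0.141, limma adjusted p = 0.000979).

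LPIN1, a phosphatidate phosphatase of triglyceride synthesis, gave the largest difference in this list. It ran from 7.58 to 11.50 in high-DBP livers, median 9.76, and from 7.13 to 10.45 in low-DBP livers, median 8.66. High-DBP livers were 2.03-fold higher (difference 1.02, SE 0.194, limma adjusted p = 0.00018), with 28 of 30 above the low-DBP median. Its second probe set moved alike, by 1.101.

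Other well-known outputs did not pass. NAMPT, which makes the precursor of NAD, differed by -0.09 (limma adjusted p = 0.704). ALAS1, the first enzyme of heme synthesis, differed by -0.30 (adjusted p = 0.246), and KLF15, a regulator of amino acid breakdown, by -0.04 (adjusted p = 0.869).

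More genes of fat synthesis were higher than lower in the high-DBP livers. Of 15 measured genes of fatty acid and triglyceride synthesis, 7 were higher (LPIN1, SCD, FASN, ME1, DGAT2, DGAT1 and ACACA), 1 was lower and 7 did not pass, with a median difference of 0.31. Without the arrays that stood apart 5 were higher and 1 lower. Its median slope in the 90 other livers was 0.17, with 12 of 15 positive. Only 1 positive and 1 negative slope had an unadjusted p under 0.05.

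SCD, the desaturase that makes oleate, ran from 10.91 to 13.15 in high-DBP livers, median 12.34, and from 7.66 to 13.10 in low-DBP livers, median 11.51. The tops of the groups coincided, and 9 low-DBP livers lay below every high-DBP liver. The difference was 0.95 (SE 0.244, 1.93-fold, limma adjusted p = 0.00464).

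FASN, the fatty acid synthase, ran from 7.26 to 9.25 in high-DBP livers, median 8.77, and from 5.77 to 9.47 in low-DBP livers, median 8.03. It differed by 0.77 (SE 0.184, 1.70-fold, limma adjusted p = 0.00262), which did not pass without the arrays that stood apart (0.48, adjusted p = 0.0597). DGAT2, which adds the last fatty acid to triglyceride, differed by 0.49 (SE 0.0847, limma adjusted p = 4.56e-05). ME1, which supplies NADPH for lipid synthesis, differed by 0.59 (SE 0.142, limma adjusted p = 0.00256), and its second probe set by 0.18, which was not called. The lower member was FADS2, a desaturase of polyunsaturated fatty acids, at -0.26 (limma adjusted p = 0.000265), while SREBF1, the transcription factor that drives the pathway, differed by -0.01 (adjusted p = 0.929).

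Of 16 measured genes listed under fatty acid oxidation and ketogenesis, 3 were lower in the high-DBP livers (PLIN2, ACSL1 and CPT1A) and 1 was higher (FABP1), with a median difference of -0.09. The same counts held without the arrays that stood apart. Over all genes 13.8% were called lower and 11.3% higher. The list is wider than oxidation enzymes, since PLIN2 coats lipid droplets and FABP1 binds fatty acids. Among slopes in the 90 other livers the median was -0.18, with 13 of 16 negative and 3 of these at an unadjusted p under 0.05.

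PLIN2, the coat protein of lipid droplets, had the largest negative difference of any named gene. It ran from 6.02 to 8.46 in high-DBP livers, median 6.71, and from 6.59 to 10.85 in low-DBP livers, median 8.43. The low-DBP livers were spread over more than 4 log2 units while 29 of 30 high-DBP livers lay below their median. The difference was -1.56 (SE 0.226, limma adjusted p = 2.24e-06), with the high-DBP mean at 0.34 of the low-DBP mean. The slope in the 90 other livers was -1.22 (SE 0.313, unadjusted p = 0.00018).

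ACSL1, which activates long-chain fatty acids, ran from 11.09 to 12.57 in high-DBP livers, median 11.65, and from 11.72 to 13.39 in low-DBP livers, median 12.29. It differed by -0.55 (SE 0.0914, limma adjusted p = 2.47e-05), and 17 high-DBP livers lay below every low-DBP liver. CPT1A, the gate for fatty acid entry into mitochondria, differed by -0.60 (SE 0.164, limma adjusted p = 0.00831). That call was lost with fat area and drip loss as covariates. FABP1, the main fatty acid binding protein of liver, was the member that was higher, at 0.40 (SE 0.0979, limma adjusted p = 0.0034). PPARA, the receptor that controls the oxidation genes, differed by -0.04 (adjusted p = 0.83).

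MFSD2A, a lysophospholipid transporter induced by fasting in mouse liver, stood beside PLIN2 among the lowest. It ran from 5.20 to 10.05 in high-DBP livers, median 7.61, and from 5.34 to 11.49 in low-DBP livers, median 9.21. The difference was -1.49 (SE 0.328, limma adjusted p = 0.0011), with 29 of 30 high-DBP livers below the low-DBP median. In the 90 other livers its slope was -1.12 (SE 0.515, unadjusted p = 0.0323).

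**Figure D2:**
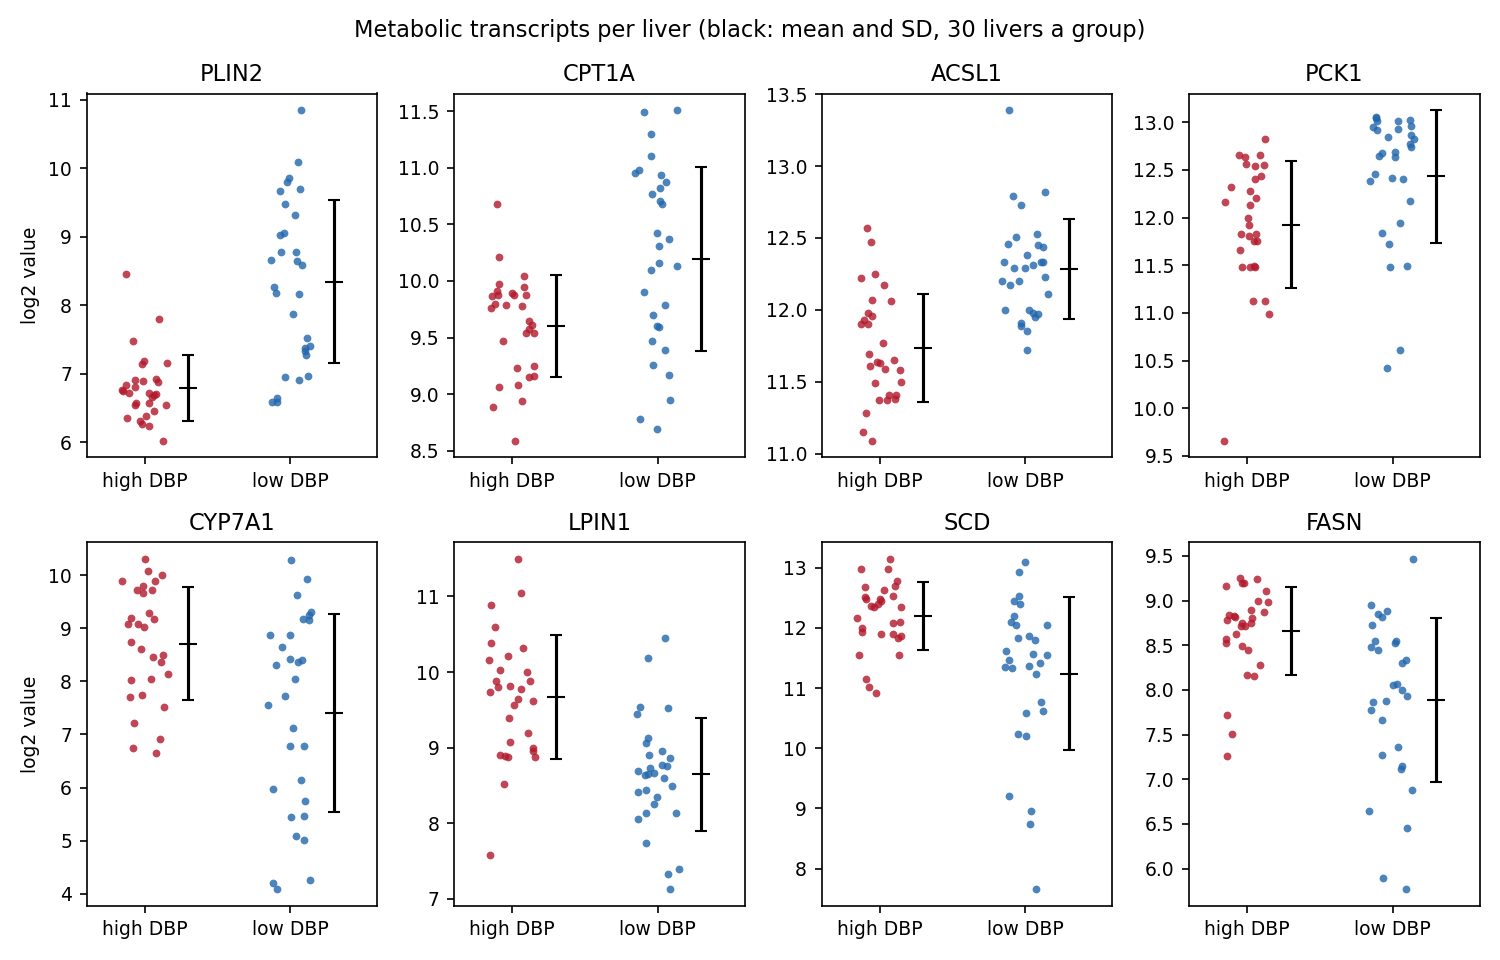
Log2 value (vertical axes) of 8 metabolic transcripts in each of the 30 high-DBP livers (left, red) and 30 low-DBP livers (right, blue), with the group mean and SD in black. PLIN2, CPT1A, ACSL1 and PCK1 (top) sit lower and CYP7A1, LPIN1, SCD and FASN (bottom) higher in high-DBP livers, with overlap in every panel.

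The list of gluconeogenesis and glycogen was divided, with 2 of 9 measured genes higher and 2 lower. The 2 lower, PC and PCK1, belong to gluconeogenesis, and the 2 higher, PYGL and PPP1R3B, act on glycogen. That split describes the called genes only. The 5 that did not pass were PCK2 at 0.11, FBP1 at 0.08, SLC37A4 at 0.12, PPARGC1A at 0.16 and UGP2 at -0.33. PC, pyruvate carboxylase, differed by -0.64 (SE 0.127, limma adjusted p = 0.000296). PCK1, the cytosolic enzyme of the next step, ran from 9.66 to 12.82 in high-DBP livers, median 11.96, and from 10.42 to 13.06 in low-DBP livers, median 12.69. It differed by -0.51 (SE 0.169, limma adjusted p = 0.031). Without the arrays that stood apart the difference was -0.53 and did not pass (adjusted p = 0.0656), while among all livers 29 of 30 high-DBP livers lay below the low-DBP median. PYGL, the liver glycogen phosphorylase, differed by 0.26 (limma adjusted p = 0.0085). PPP1R3B, which targets a phosphatase to glycogen, differed by 0.61 (limma adjusted p = 0.035), and by 0.46 without the arrays that stood apart (adjusted p = 0.208).

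In glycolysis and sugar uptake 2 of 8 measured genes were higher, GAPDH by 0.37 (limma adjusted p = 5.24e-05) and TPI1 by 0.20 (limma adjusted p = 0.0275). GAPDH has 4 further probe sets, which differed by 0.11 to 0.17 with 1 called the same way. Without the arrays that stood apart TPI1 did not pass (adjusted p = 0.134).

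Bile acid synthesis gave 2 higher genes and 1 lower of 7 measured. CYP7A1, its rate-limiting enzyme, ran from 6.65 to 10.31 in high-DBP livers, median 8.89, and from 4.09 to 10.28 in low-DBP livers, median 7.89. The lowest low-DBP liver stood at the floor of the table, and 10 low-DBP livers lay below every high-DBP liver. The difference was 1.31 (SE 0.375, 2.48-fold, limma adjusted p = 0.0115). It was in the same direction in all 7 blocks of title numbers that held both groups, and it did not pass with fat area and drip loss as covariates (adjusted p = 0.123). In the 90 other livers its slope was 0.45 (SE 0.527, unadjusted p = 0.392).

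CYP27A1, of the alternative pathway, differed by 0.41 (limma adjusted p = 0.00152, and 0.0536 without the arrays that stood apart). Of 2 further CYP27A1 probe sets, at 0.40 and 0.11, 1 was called, and the brightest, at 0.11, was not. CYP8B1, which sets the share of cholic acid, differed by -0.25 (limma adjusted p = 0.00907). None of 9 measured genes of cholesterol synthesis and uptake passed, the smallest p being that of their transcription factor SREBF2 (difference 0.16, limma adjusted p = 0.147), which alone had an unadjusted p under 0.05.

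Of 13 measured heme and iron genes 4 were higher and 0 lower, 3 of them enzymes of heme synthesis and 1 of heme breakdown. ALAD, the second enzyme of the pathway, ran from 11.05 to 11.83 in high-DBP livers, median 11.45, and from 10.38 to 11.55 in low-DBP livers, median 11.09. The difference was 0.41 (SE 0.0608, 1.33-fold, limma adjusted p = 2.64e-06), with 29 of 30 high-DBP livers above the low-DBP median and a slope of 0.28 in the 90 others (unadjusted p = 0.00102). PPOX and FECH, which carry out the last steps, differed by 0.40 (limma adjusted p = 0.00122) and 0.20 (limma adjusted p = 0.0222), and a second PPOX probe set by -0.02. BLVRA, which reduces biliverdin to bilirubin, differed by 0.27 (limma adjusted p = 0.0266, and 0.298 without the arrays that stood apart).

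Amino acid breakdown and the urea cycle had 3 of 16 measured genes higher and 0 lower. BCKDHB, a subunit of the branched-chain ketoacid dehydrogenase, differed by 0.30 (limma adjusted p = 0.00219). GPT, alanine aminotransferase, differed by 0.38 (limma adjusted p = 0.00612), and OAT, ornithine aminotransferase, by 0.41 (limma adjusted p = 0.0478). Of these, GPT and OAT did not pass without the arrays that stood apart (adjusted p = 0.052 and 0.104). OAT had a slope of 0.77 in the 90 other livers (unadjusted p = 0.00303).

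Drug metabolism genes gave 2 higher and 2 lower of 21 measured. CYP1A1, an oxidase induced through the aryl hydrocarbon receptor, differed by 0.89 (SE 0.292, 1.85-fold, limma adjusted p = 0.028), and by 0.56 without the arrays that stood apart (adjusted p = 0.224). AHR, that receptor, differed by -0.25 (limma adjusted p = 0.00438, and 0.0611 without those arrays), while its 2 other probe sets differed by 0.05 and 0.12 and were not called. CES1, a carboxylesterase, differed by 0.26 (limma adjusted p = 0.00235), and CYP2C33 by -0.18 (limma adjusted p = 0.00927).

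Lists of hormone targets were mixed. Of 13 glucocorticoid response genes 2 were higher and 3 lower. TSC22D3, which carries the glucocorticoid signal against inflammation, differed by 0.49 (limma adjusted p = 0.00757, and 0.0636 without the arrays that stood apart). FKBP5, a glucocorticoid receptor chaperone induced by the same hormone, differed by -0.36 (limma adjusted p = 0.0399), and its second, brighter probe set by -0.20, which was not called. SGK1, a kinase, differed by -0.51 (limma adjusted p = 0.0477). Neither FKBP5 nor SGK1 passed without those arrays (adjusted p = 0.121 and 0.0859).

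Of 13 genes of the insulin and growth hormone axis 2 were higher and 2 lower. STAT5B, the factor that carries the growth hormone signal, differed by 0.29 (SE 0.0541, limma adjusted p = 0.000172; a second probe set by 0.16, not called), with a slope of 0.18 in the 90 others (unadjusted p = 0.0154). IRS1, the insulin receptor substrate, differed by -0.30 (limma adjusted p = 0.00488). FOXO3 differed by 0.12 (limma adjusted p = 0.0379, and 0.21 without the arrays that stood apart), and its second probe set by 0.11, which was not called. IGF2 differed by -0.26 (limma adjusted p = 0.0236), with 2 of its 12 other probe sets called the same way.

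**Figure D3:**
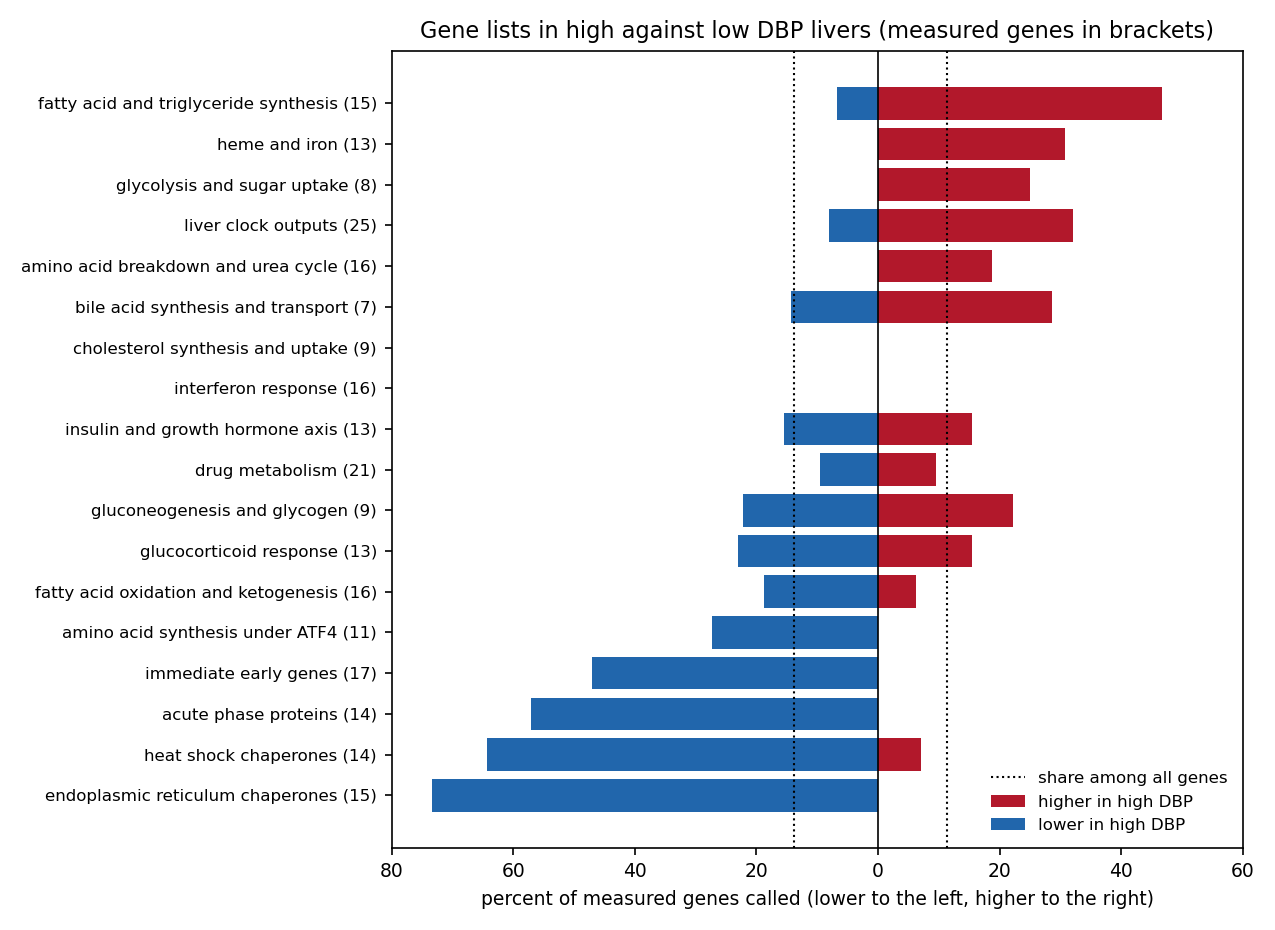
Percent of the measured genes called higher (red, to the right) or lower (blue, to the left) in 30 high-DBP against 30 low-DBP livers, for each list other than the core clock and cell type marker lists, with measured genes in brackets. Dotted lines mark the shares among all 6764 genes, 11.3% higher and 13.8% lower. Of the lists drawn, endoplasmic reticulum chaperones reach furthest to the left with 11 of 15 genes, and fatty acid and triglyceride synthesis furthest to the right with 7 of 15.

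Many genes of protein folding stress were called. Of 15 measured endoplasmic reticulum chaperones and folding factors, 11 were lower in the high-DBP livers, 0 were higher and 4 did not pass, with a median difference of -0.43. Without the arrays that stood apart 8 were lower. Slopes of the list in the 90 other livers had a median of -0.11, with 10 negative and 5 positive, of which 2 and 1 had an unadjusted p under 0.05.

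HSPA5, the main chaperone of the endoplasmic reticulum (BiP), ran from 10.40 to 11.97 in high-DBP livers, median 11.16, and from 10.94 to 13.26 in low-DBP livers, median 11.99. All 30 high-DBP livers lay below the low-DBP median, and 15 low-DBP livers lay above every high-DBP liver. The difference was -0.79 (SE 0.119, limma adjusted p = 4e-06), and the slope in the 90 others was -0.34 (unadjusted p = 0.0339).

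HYOU1, a partner of HSPA5 induced by low oxygen, ran from 7.86 to 9.77 in high-DBP livers, median 8.70, and from 8.33 to 11.18 in low-DBP livers, median 9.57. It differed by -1.01 (SE 0.147, limma adjusted p = 2.23e-06). MANF, a secreted folding-stress factor, differed by -0.88 (SE 0.137, limma adjusted p = 9.74e-06), and all 30 high-DBP livers lay below the low-DBP median. HSP90B1, the HSP90 of this compartment, differed by -0.89 (SE 0.198, limma adjusted p = 0.00113), and by -0.58 without the arrays that stood apart (adjusted p = 0.0408). XBP1, the transcription factor of the response, differed by -0.39 (SE 0.0749, limma adjusted p = 0.000221), and PDIA6, a disulfide isomerase, by 0.04 (adjusted p = 0.761).

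HSPA13, a microsomal member of the HSP70 family outside the list, had the third largest negative difference of the named genes. It ran from 4.95 to 7.87 in high-DBP livers, median 6.54, and from 6.34 to 8.80 in low-DBP livers, median 7.59. The difference was -1.32 (SE 0.167, limma adjusted p = 8.62e-08), with 14 high-DBP livers below every low-DBP liver. Its slope in the 90 others was -0.65 (unadjusted p = 0.00917).

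Of 14 measured heat shock chaperones, most of them cytosolic, 9 were lower and 1 higher, with a median of -0.39, and 7 were lower and 1 higher without the arrays that stood apart. Their median slope in the 90 other livers was -0.25, with 12 of 14 negative and 1 of these at an unadjusted p under 0.05. HSPA8, the constitutive HSC70, ran from 10.04 to 11.83 in high-DBP livers, median 10.93, and from 10.26 to 12.57 in low-DBP livers, median 11.74. It differed by -0.70 (SE 0.127, limma adjusted p = 9.63e-05), but its 3 other probe sets differed by -0.11 to -0.01 and were not called.

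HSPH1, a nucleotide exchange factor of HSP70, differed by -0.78 (SE 0.126, limma adjusted p = 1.44e-05). DNAJB4 and DNAJB1, co-chaperones of HSP70, differed by -0.71 (limma adjusted p = 0.000671) and -0.61 (limma adjusted p = 0.000724). The member that was higher was HSPB1, a small heat shock protein, at 0.34 (SE 0.096, limma adjusted p = 0.00917).

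Immediate early genes, switched on quickly by stress and growth signals, had 8 of 17 measured members lower and 0 higher, with 8 lower also without the arrays that stood apart. Slopes in the 90 other livers had a median of -0.14, with 13 of 17 negative and 0 at an unadjusted p under 0.05. JUN, a subunit of AP-1, ran from 7.37 to 9.58 in high-DBP livers, median 8.29, and from 8.14 to 11.25 in low-DBP livers, median 9.10. It differed by -0.81 (SE 0.148, limma adjusted p = 0.000105), with 28 of 30 high-DBP livers below the low-DBP median, while its slope in the 90 others was -0.004 (unadjusted p = 0.98).

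ATF3, a stress-induced repressor, differed by -0.76 (limma adjusted p = 0.0069), and 1 low-DBP liver reached 10.95 against a top of 7.15 in high-DBP livers. ZFP36, which speeds the decay of inflammatory mRNAs, differed by -0.74 (limma adjusted p = 0.00301), and BTG2, an antiproliferative factor, by -0.70 (limma adjusted p = 0.00167). FOS, the partner of JUN, differed by -0.50 and did not pass (limma adjusted p = 0.0782).

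**Figure D4:**
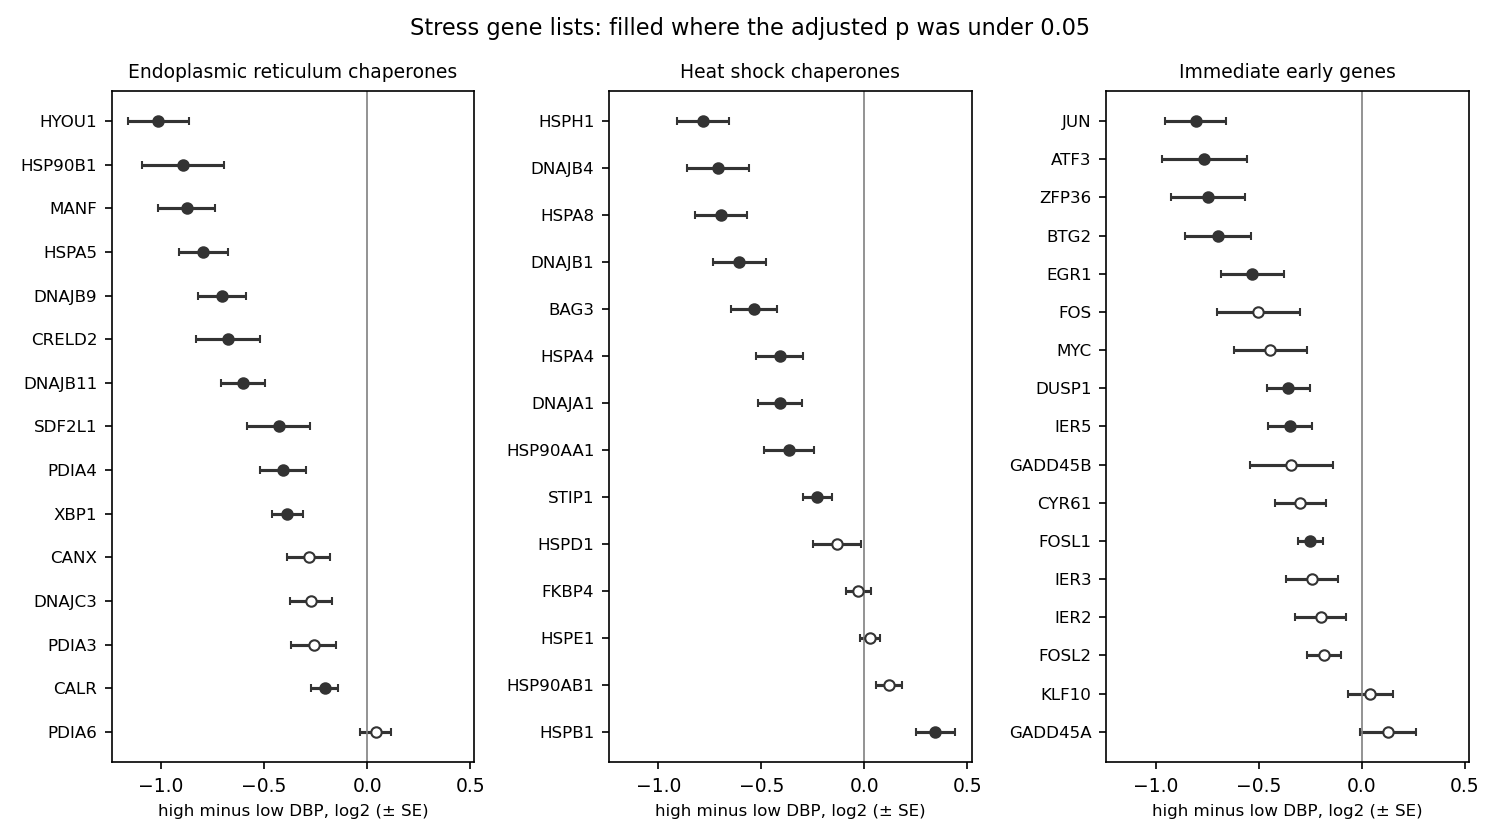
Difference of 30 high-DBP minus 30 low-DBP livers on the log2 scale with its SE (horizontal axes) for every measured member of 3 stress lists, filled where limma's adjusted p was under 0.05. Filled points lie left of 0 except HSPB1 at 0.34.

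Of 11 measured genes of amino acid synthesis under ATF4, 3 were lower and 0 higher. ATF4, the translation-controlled factor that drives them, differed by -0.45 (SE 0.0862, limma adjusted p = 0.000221), with a slope of -0.32 in the 90 others (unadjusted p = 0.00271). ATF5, a related factor, and SLC3A2, the heavy chain of amino acid transporters, differed by -0.24 (limma adjusted p = 0.00687) and -0.25 (limma adjusted p = 0.0151). DDIT3 (CHOP), the death-linked factor of the same response, differed by -0.02 (adjusted p = 0.877).

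Acute phase proteins, which liver secretes in inflammation, had 8 of 14 measured members lower and 0 higher, and 5 lower without the arrays that stood apart. CRP, C-reactive protein, ran from 10.12 to 12.83 in high-DBP livers, median 11.51, and from 9.79 to 13.54 in low-DBP livers, median 12.43. It differed by -0.71 (SE 0.187, limma adjusted p = 0.00604). SAA2 differed by -0.49 (limma adjusted p = 0.0174, and 0.131 without those arrays), with a second probe set at 0.05. LBP, which binds bacterial lipopolysaccharide, differed by -0.42 (limma adjusted p = 0.00646). A second and brighter LBP probe set differed by -0.55 and was not called (limma adjusted p = 0.12). APCS differed by -0.34 (limma adjusted p = 0.0273, and 0.0736 without those arrays). In the 90 other livers the median slope of the list was 0.01, and 9 of its 14 slopes were positive, with 0 in either direction at an unadjusted p under 0.05. None of 16 interferon response genes passed between the groups, the smallest p being that of DDX60 (difference -0.33, limma adjusted p = 0.13), and 2 had an unadjusted p under 0.05. The list's median was -0.15 between the groups, and leaving out the arrays that stood apart gave 0.03 with 1 gene called higher, IFIT3, an interferon-induced antiviral gene (adjusted p = 0.0406, against 0.76 with all livers). Of the 16 slopes in the 90 other livers 15 were positive, with a median of 0.27, and 2 of these had an unadjusted p under 0.05.

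The largest positive difference of a named gene was that of CA3, a carbonic anhydrase abundant in liver. It ran from 7.16 to 10.67 in high-DBP livers, median 8.79, and from 4.09 to 10.11 in low-DBP livers, median 7.33. The difference was 1.49 (SE 0.297, 2.81-fold, limma adjusted p = 0.000315), with 29 of 30 high-DBP livers above the low-DBP median and a slope of 0.81 in the 90 others (unadjusted p = 0.0521).

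NREP, at 0.94 (limma adjusted p = 0.000576), and RGCC, a cell-cycle regulator, at 0.85 (limma adjusted p = 8.45e-06), had all 30 high-DBP livers above the low-DBP median, as did REEP4, which shapes the endoplasmic reticulum, at 0.78 (limma adjusted p = 1.54e-07). The slopes in the 90 others were 0.62 for NREP, 0.43 for RGCC and 0.12 for REEP4 (unadjusted p = 0.0207, 0.00848 and 0.392). GULO, the last enzyme of vitamin C synthesis, differed by 0.83 (limma adjusted p = 0.000309). TSKU, a protein secreted by liver, differed by 0.92 (limma adjusted p = 0.00385) and had a slope of 1.40 in the 90 others (SE 0.334, unadjusted p = 6.42e-05). A second TSKU probe set differed by 0.64 and was not called, and of 2 further RGCC probe sets, at 0.04 and 0.82, 1 was called.

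Among the lowest stood a pair of mitochondrial carriers, SLC25A33, which moves pyrimidine nucleotides, and SLC25A30. SLC25A33 ran from 4.20 to 6.32 in high-DBP livers, median 5.02, and from 4.81 to 7.59 in low-DBP livers, median 5.95. It differed by -1.02 (SE 0.139, limma adjusted p = 6.42e-07), with a slope of -0.83 in the 90 others (unadjusted p = 0.000111), but its second probe set differed by -0.04.

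SLC25A30 differed by -0.996 (SE 0.21, limma adjusted p = 0.000647), with a slope of -1.13 (unadjusted p = 0.000134). TMED5, which sorts cargo leaving the endoplasmic reticulum, differed by -0.96 (limma adjusted p = 0.000491), and CKAP4, a membrane protein of that compartment, by -0.91 (limma adjusted p = 0.000284).

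The 90 livers in neither group gave far fewer calls, 8 probe sets or 0.0333%, with 4 positive and 4 negative slopes, and all 8 were called the same way between the groups. ARNTL and WDYHV1 (slope 0.47, SE 0.0954, limma adjusted p = 0.0121) were the 2 with a gene symbol, and WDYHV1, a glutamine amidase of protein ends, was 0.40 higher in the high-DBP livers (limma adjusted p = 4.99e-06). At an unadjusted p under 0.05 the slope passed in 1479 probe sets, 6.16%. Of the 3973 probe sets called between the groups 85.6% had a slope in the same direction, against 60.2% of the 20025 not called. With the slope also at an unadjusted p under 0.05, these shares were 14.0% and 3.26%.

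Of the 80 named genes that passed between the groups, 71 had a slope of the same sign in the 90 livers, 24 of them at an unadjusted p under 0.05, and 0 had a slope of the opposite sign at that level. The 9 with the opposite sign included LBP, CRP and SAA2 of the acute phase.

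Other settings ended some calls of named genes. With the array median as a covariate CYP1A1, PPP1R3B, OAT, BLVRA, TPI1, FOXO3, CYP2C33, ATF5, CYP8B1, IGF2 and FKBP5 no longer passed, besides PER1. With blocks of title numbers PPP1R3B, BLVRA, TPI1, FOXO3, CYP2C33, ATF5, SLC3A2, IGF2, IRS1, FKBP5, PCK1 and SGK1 did not pass. With fat area and drip loss as covariates CYP1A1, PPP1R3B, OAT, GPT, BCKDHB, BLVRA, TPI1, FECH, ATF5, CYP8B1, SLC3A2, IGF2, APCS, FKBP5, LBP, PCK1, SGK1 and ATF3 did not pass, besides CYP7A1 and CPT1A. The 3 prime minus 5 prime measures as covariates ended the calls of CYP1A1, PPP1R3B, OAT, BLVRA, TPI1, FOXO3, FKBP5 and the markers CPA1, HBB and APOB. Quantile normalization ended those of SLC3A2, FKBP5, SGK1 and the marker LYVE1.

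**Figure D5:**
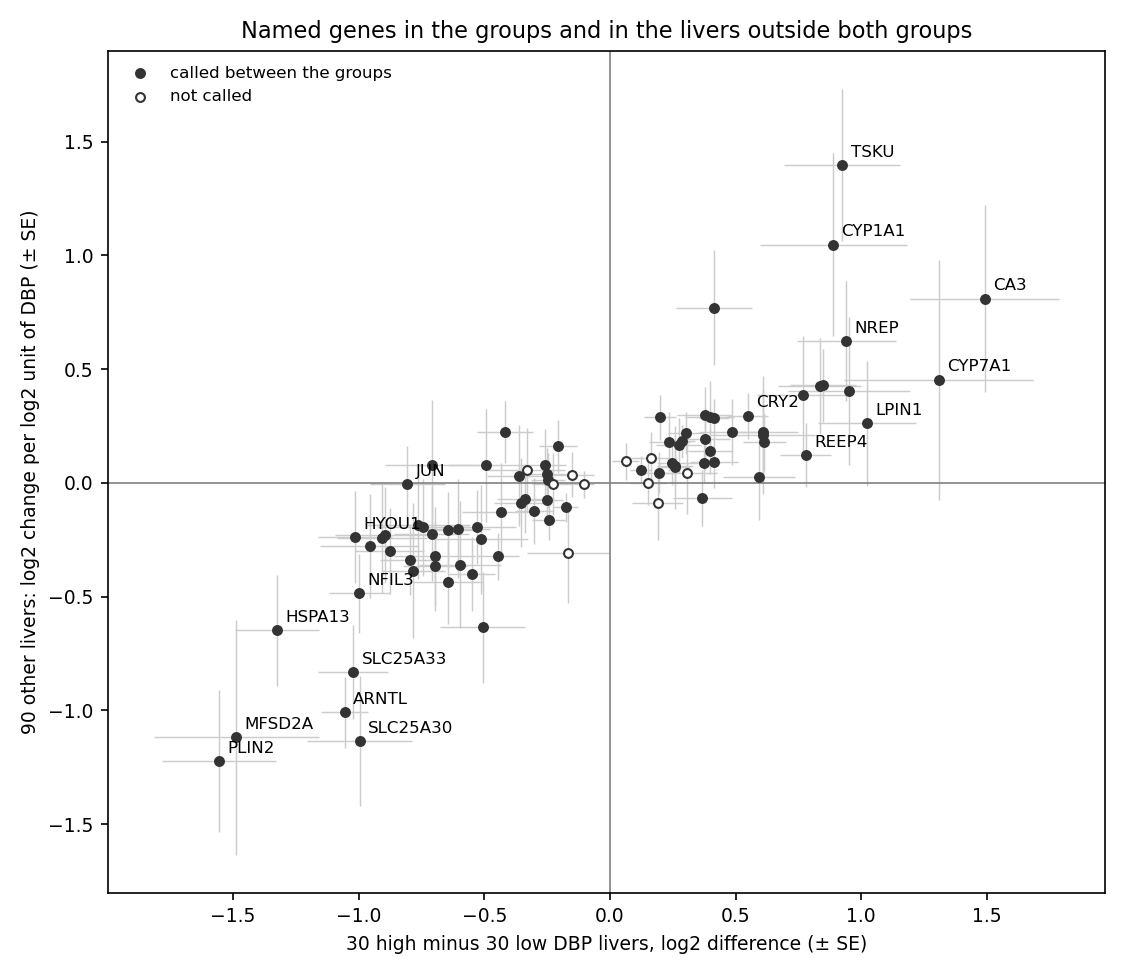
Each point is 1 of the 90 named genes: horizontally the log2 difference of 30 high-DBP minus 30 low-DBP livers, vertically the log2 change per log2 unit of DBP in the 90 other livers, with SE bars, filled where limma called the difference. ARNTL, PLIN2, MFSD2A and SLC25A30 lie low at the left, with slopes of -1.01, -1.22, -1.12 and -1.13, and TSKU highest at the right with 1.40.

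The sample was also read for the cell types a whole liver can hold. Of 8 hepatocyte markers 1 passed, APOB, at -0.43 (limma adjusted p = 0.0456), and ALB was at a median of 13.92 in high-DBP and 13.90 in low-DBP livers, as a hepatocyte-rich tissue has it. The mean level of the hepatocyte list ran from 12.48 to 12.90 in high-DBP and from 12.55 to 12.90 in low-DBP livers.

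Of 7 macrophage markers 1 was lower, CD163 at -0.53 (limma adjusted p = 0.0129). That probe set lay near the floor, with means of 4.94 in high-DBP and 5.47 in low-DBP livers. A brighter CD163 probe set differed by -0.30 and was not called (limma adjusted p = 0.0986). The mean of the macrophage list ran from 7.93 to 8.52 in high-DBP and from 7.76 to 8.99 in low-DBP livers. Of 6 endothelial markers 1 was lower, LYVE1 at -0.21 (limma adjusted p = 0.0443), with list means of 6.28 to 6.88 in high-DBP and 6.33 to 6.82 in low-DBP livers. The 2 other LYVE1 probe sets differed by -0.19 and -0.05 and were not called. Of 7 T and NK cell markers 1 was higher, CD8A at 0.24 (limma adjusted p = 0.0353), with list means of 5.33 to 5.87 in high-DBP and 5.30 to 5.86 in low-DBP livers.

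HBB, a red cell globin and 1 of 2 red cell markers, differed by -0.35 (limma adjusted p = 0.0211). CPA1, 1 of 3 pancreas markers, differed by 0.37 (limma adjusted p = 0.0218), and TNNT1, 1 of 5 muscle markers, by 0.25 (limma adjusted p = 0.00355). None of 8 stellate cell, 5 bile duct, 2 B cell, 3 neutrophil or 3 adipocyte markers passed in limma, although 5 of the 8 stellate cell markers and 1 bile duct marker had an unadjusted p under 0.05. Without the arrays that stood apart CD8A alone of these marker genes still passed (adjusted p = 0.039). The part of other cell types in the results was not tested.

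Carcass traits were also compared. The fat area on the back muscle averaged 16.8 ± 3.26 cm2 in pigs with high-DBP livers and 13.9 ± 3.16 cm2 in pigs with low-DBP livers (SD, n = 30 each), and 28 of 30 of the pigs with high-DBP livers lay above the median of the pigs with low-DBP livers. The difference was 2.97 cm2 (permutation p = 0.00078, adjusted p = 0.00624 over 8 measures). That DBP goes with fat area was known from earlier results on these data, so this is no separate evidence. Within the 90 other pigs fat area and DBP had r = 0.170 (rho = 0.156, permutation adjusted p = 0.206 and 0.347). With both traits as covariates 3320 probe sets were called between the groups, and ARNTL, NFIL3, CRY2, PLIN2 and LPIN1 were among them.

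Drip loss, the water that hanging muscle loses, averaged 5.47% in pigs with high-DBP and 6.17% in pigs with low-DBP livers (permutation adjusted p = 0.326). Sex is not labelled, but the mean log2 value of 2 Y-linked probe sets had medians of 5.265 in high-DBP and 4.48 in low-DBP livers. Its group means were 5.08 and 4.90 (permutation adjusted p = 0.36), and 5.205 and 4.84 with 20 a group (adjusted p = 0.144). EIF1AY, a Y-linked gene, lay above 5 in 18 high-DBP and 13 low-DBP livers. Adjusted for the Y-linked level, the groups gave 4139 calls, and 3 named genes lost the call while 1 gained it. In 7 blocks of title numbers that held both groups, ARNTL, NFIL3, PLIN2, MFSD2A, HSPA13 and HYOU1 were lower and CRY2, CYP7A1 and LPIN1 higher with high DBP in all 7, and ARNTL differed by -1.47 to -0.73 across them. CA3, SCD, NREP, TSKU, RGCC and PER1 kept their direction in 6 of the 7, and TSKU reached -0.65 in the block that turned. The blocks hold the same livers as the groups, so they are no separate evidence.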

How the data were processed

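Total RNA of 150 pig livers was hybridised to Affymetrix porcine arrays, 1 per pig, per the labels. The authors' deposited values, taken to be log2 from their range, have 2 decimals. GCOS 1.1.1 is named per the submitters' processing notes; how probes were summarised and arrays scaled is not stated there. A floor of 4.09 held 2.75% of values and understates changes near it.

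Of 24123 probe sets 124 controls and the DBP probe set were left out. Gene symbols were those of the platform annotation, and a check through Entrez IDs changed 0 of them: 10069 probe sets had 1 symbol, 198 several and 13732 none. No coordinates or sequences are given. Groups were fitted with limma 3.58.1 (lmFit, eBayes with trend) in R 4.3.3, two-sided, without covariates, and Benjamini-Hochberg adjusted over 23998 probe sets. Traits and correlations had two-sided permutation tests of 100000 resamples (Python 3.11.15, scipy 1.17.1), whose smallest p is 1e-05. The fits were also run on simulated data with independent normal noise. Those data held no differences in array quality, so they cannot show how such differences act on the calls.

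The groups, gene lists and tests were chosen with earlier results of these data known. Named were all measured clock genes, the 10 largest differences each way among called genes, and from each list at most 4 members that passed, or its smallest p where none did. The others named were chosen after their values were seen. A gene counts once, by its probe set of smallest p. The number of arrays limits precision. The planned search of promoters for motifs was not made.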

Additional observations from a re-analysis of the deposited data

How the results depend on the processing

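The groups gave 3973 calls, against 2260 with the array median as a covariate, 2003 without the arrays that stood apart, 1575 with 20 livers a group and 1750 at an adjusted p under 0.01. The 20-liver groups and the arrays left out mean fewer samples, and the threshold of 0.01 counts the same fit more strictly. For the array median the cause was not tested. The slope in the 90 livers gave 8 calls, against 14 with the 3 prime minus 5 prime measures as covariates and 15 with array weights, an alternative added after seeing the data. Of 1057 alternatives run on the 90 named genes, 944 kept direction and side of the threshold, 100 lost the call, 12 gained it, and 1 reversed (RORA, to 0.0328 with the array median). Leaving out the arrays that stood apart and adding the traits ended 22 calls each. The difference in array median was -0.0413 with 40 livers a group and passed (adjusted p = 0.0142). The median correlation differed by 0.000788 without the arrays that stood apart and by 0.00805 with 20 a group, neither passing. Signs turned for title number (-58.8 with 20 a group), the GAPDH measure (0.00496 without those arrays) and the actin measure (-0.0348 with 40 a group), none called in any setting. No paired analysis was possible because the labels give 1 group.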

Other observations

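Of the 8 probe sets called in the 90 livers outside the groups, 6 carry no gene symbol in the array's annotation. The 2 rising ones with the smallest p, of 3, were Ssc.22470.1.S1_at, with a slope of 0.49 (limma adjusted p = 4.03e-05) and a mean of 7.03 ± 0.25 in high-DBP against 6.205 ± 0.23 in low-DBP livers (SD, n = 30 each), and Ssc.12642.1.S1_at, with a slope of 0.61 (limma adjusted p = 7.34e-05) and means of 9.09 ± 0.26 in high-DBP and 8.10 ± 0.39 in low-DBP livers. The 2 falling ones with the smallest p, of 3, were Ssc.2033.1.S1_at, with a slope of -1.22 (limma adjusted p = 4.03e-05) and means of 5.72 ± 0.48 in high-DBP and 6.92 ± 0.58 in low-DBP livers, and Ssc.22590.1.A1_at, with a slope of -0.59 (limma adjusted p = 0.00752) and means of 4.85 ± 0.25 in high-DBP and 5.42 ± 0.25 in low-DBP livers. These were chosen after their values were seen.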
